A study of Mus musculus with 6 samples.

Results

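The 10 genes described here control passage through G1 of the cell cycle, and were followed in the embryonic mouse cortex with and without the histone deacetylases HDAC1 and HDAC2. They are the D cyclin genes Ccnd1, Ccnd2 and Ccnd3, the E cyclin genes Ccne1 and Ccne2, the kinase genes Cdk4, Cdk6 and Cdk2, and the genes of the inhibitors p27 (Cdkn1b) and p18 (Cdkn2c). They were taken by symbol from a deposited table of 12041 symbols, and all 10 were found in it. RNA came from cortex of C57BL/6 embryos at embryonic day 12.5. There were 3 wild-type libraries (WT) and 3 libraries labelled as conditional knockout of Hdac1 and Hdac2 together (cKO). Columns beginning HC were read as control and those beginning HM as mutant, from these letters. Values per library are given throughout in the order HC-1, HC-8, HC-10 for WT and HM-5, HM-13, HM-16 for cKO. The sources used here do not give the driver of the recombinase, the deleted exons or the alleles of the WT embryos. They also do not say whether libraries came from separate embryos, so each p-value reflects library-to-library spread that may be technical.

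D cyclins are made in response to growth signals and bind CDK4 or CDK6. The active kinases phosphorylate the retinoblastoma protein, which releases E2F transcription factors, and cyclin E with CDK2 then carries the cell into S phase. Inhibitors of the INK4 family, such as p18, bind CDK4 and CDK6, whereas p27 of the Cip/Kip family acts chiefly on CDK2 complexes. In cortical progenitors the length of G1 and the supply of cyclin D are known to bear on the choice between further division and neuronal differentiation.

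In the cKO cortex the transcripts of Ccnd1, Ccnd2 and Cdk4 fell to between 58.7% and 65.6% of WT, and Cdkn2c rose 1.64-fold. Of the 10 members, 9 reached 1 FPKM (fragments per kilobase of transcript, scaled by a factor per library) in 3 or more libraries. The factor, recovered from the deposited values, was 0.804 in HM-13 and 0.984 to 1.19 elsewhere, and did not follow total reads. Reads outside the ribosomal row Rn45s were fewest in HM-13 (8067640) and most in HC-8 (11626932), the libraries with the lowest and highest factor. Those 9 members were tested with limma on log2(FPKM + 1) in a fit over 9359 genes. Of the 9, 3 fell and 1 rose at a Benjamini-Hochberg adjusted p under 0.05; among all genes tested 18.0% were called, 8.39% as lower and 9.62% as higher. The WT and cKO values of the same 4 members did not overlap, which held for 39.1% of all genes tested. The median log2 fold change was -0.13 over the 9 members and -0.01 over all genes tested. In the authors' deposited table these 4 members have an FDR under 0.05, as do 19.3% of the rows given an FDR there. Ccne2 was not tested, and 5 members were tested and not called. Because the tissue is bulk cortex, fewer cells of one type and less RNA per cell cannot be told apart in any of these values.

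**Figure D1:**
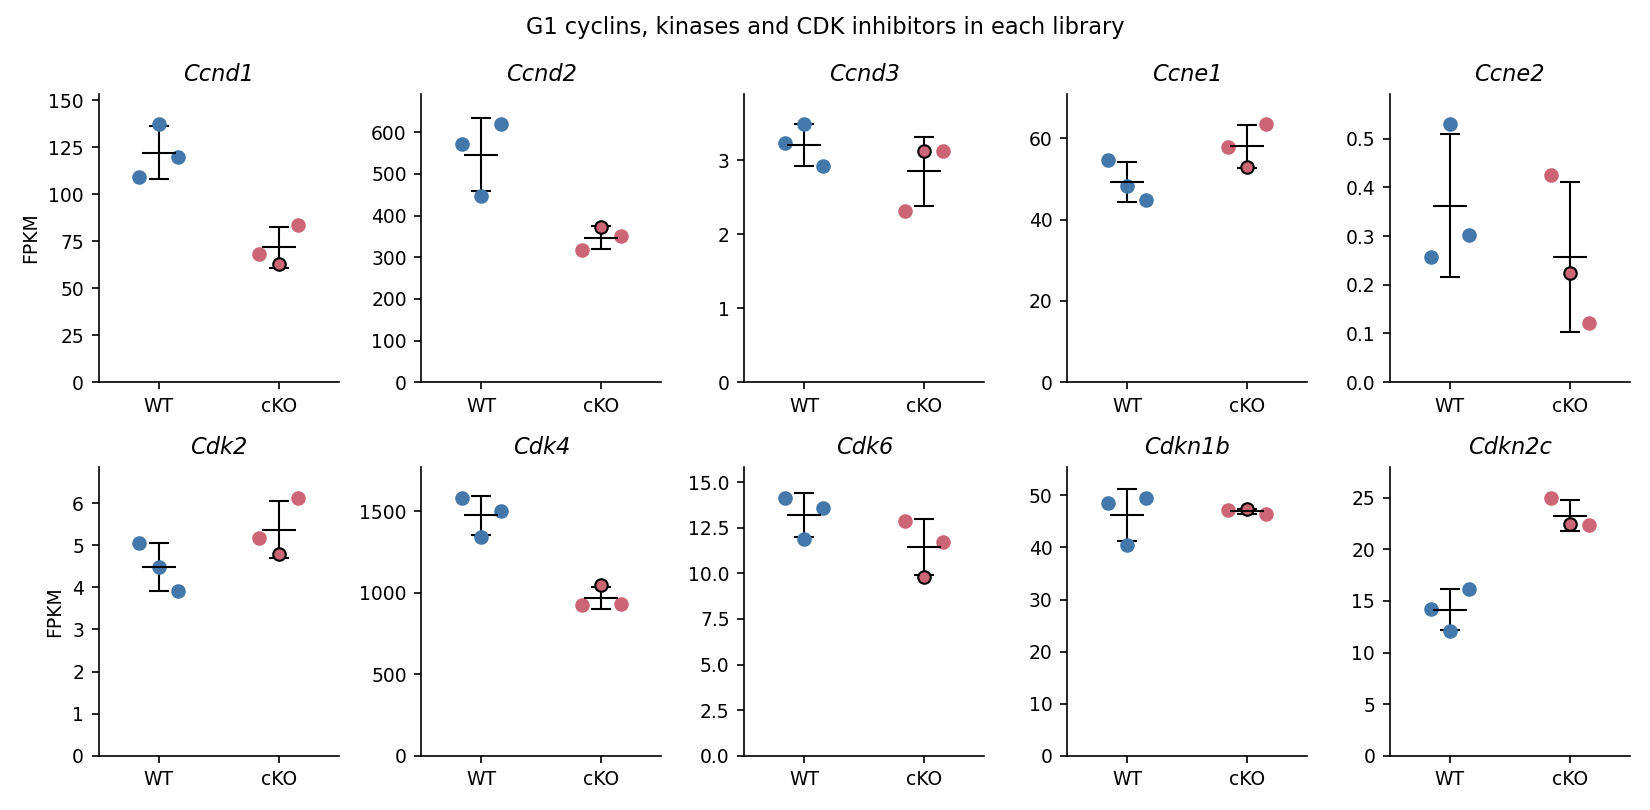
FPKM of each of the 10 genes (y axes from 0, a scale per gene) in 3 WT and 3 cKO libraries; points are libraries, the black rim marks HM-13, and bars give mean ± SD. The cKO points lie below all WT points for Ccnd1, Ccnd2 and Cdk4 and above them for Cdkn2c.

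The targeted genes were checked first: Hdac1 stood at 25.6% and Hdac2 at 23.6% of the WT mean in the libraries labelled cKO. Hdac2 varied among the WT libraries, at 134, 216 and 272 FPKM, and had 37.6, 61.7 and 47.5 FPKM in cKO. A second Hdac2 row (ENSMUST00000105510), with 8.25% of the counts of the symbol, was not lower, with 6.62 ± 0.212 FPKM in WT and 7.46 ± 0.809 in cKO (SD, n = 3 each). Reads recovered from the table total 9712556 to 11922665 per library. The ribosomal row Rn45s takes 29.7% of them in HM-13 and 0.506% to 2.48% elsewhere, and without HM-13 the same 4 members were called. The progenitor gene Sox2 (275 ± 24.1 FPKM in WT), the cortical gene Emx2 (158 ± 13.7) and the deep-layer neuron gene Tbr1 (104 ± 9.43; SD, n = 3) were all present. Some genes of this tissue are listed at very low levels, such as the progenitor filament gene Nes (0.507 ± 0.0588 FPKM in WT) and the catenin gene Ctnnb1 (0.722 ± 0.0452). How reads shared by overlapping transcripts were counted is not stated, so a low row does not show that its gene is little expressed. Levels are therefore compared between genes only as levels of these rows.

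Of the D cyclins, Ccnd2 had the highest row level, and both Ccnd2 and Ccnd1 fell. Ccnd1 (ENSMUST00000093962; chromosome 7, 144929931 to 144939925, minus strand, GRCm38) stood at 109, 137 and 120 FPKM in WT. The cKO libraries had 68.2, 63.0 and 83.6 FPKM. Every cKO library was below every WT library, and HC-8 was the highest. The means were 122 ± 14.0 and 71.6 ± 10.7 FPKM (SD, n = 3 each), with a log2 fold change of -0.76 (SE 0.12, limma adjusted p = 0.00756) on 2060 to 6628 reads per library.

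Ccnd2 (ENSMUST00000000188; chromosome 6, 127125162 to 127152193, minus strand), a D cyclin of dividing cortical progenitors, had 573, 448 and 619 FPKM in WT. It had 318, 372 and 351 FPKM in cKO. The groups did not overlap, but HC-8, the WT library with the most Ccnd1, had the least Ccnd2. The mean went from 546 ± 88.6 to 347 ± 27.6 FPKM, or 63.5% of WT. The log2 fold change was -0.64 (SE 0.12, limma adjusted p = 0.0146). The call was lost without HM-5 (adjusted p = 0.0661) and without HM-16 (adjusted p = 0.0559), while the log2 fold change stayed between -0.78 and -0.55 with any 1 library left out.

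Ccnd3 (ENSMUST00000182281; chromosome 17, 47505051 to 47599691, plus strand) was the D cyclin with the lowest row level. The WT libraries had 3.23, 3.49 and 2.92 FPKM, and the cKO libraries 2.31, 3.12 and 3.12. The groups overlapped, and the log2 fold change of -0.13 had a 95% interval from -0.44 to 0.17 (limma adjusted p = 0.514). GENCODE M21 lists 21 transcripts of the gene, of which the table holds 1 row, with 100 to 170 reads per library. The span given is that of the gene, and the transcript of the row starts inside it, at 47593436.

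The summed FPKM of the 3 D cyclins was 685, 588 and 742 in WT and 388, 438 and 437 in cKO. The cKO mean was 62.7% of WT, with no overlap between the groups. Ccnd2 made up 81.0% ± 4.28 of the sum in WT and 82.3% ± 2.41 in cKO, and Ccnd1 made up 18.5% ± 4.19 and 17.0% ± 2.42 (SD, n = 3 each). These shares differed by less than the spread between libraries. The small share of Ccnd3 was 0.471%, 0.593% and 0.394% in WT and 0.596%, 0.713% and 0.714% in cKO, which did not overlap, though HC-8 and HM-5 nearly met.

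A ratio of genes within a library does not depend on how libraries are scaled, and 9 such ratios were tested. The ratio of Ccnd1 to Ccnd2 was 0.191, 0.306 and 0.194 in WT and 0.215, 0.169 and 0.239 in cKO. The groups overlapped, with HC-8 highest and HM-13 lowest (log2 difference -0.13, two-sided exact permutation p = 0.7). The ratio of Ccnd1 to Ccnd3 was 33.8, 39.3 and 41.1 in WT and 29.5, 20.2 and 26.8 in cKO, without overlap (log2 difference -0.59, exact permutation p = 0.1). With 3 libraries against 3, 0.1 is the smallest p this test can give, and it becomes 0.15 after adjustment over the 9 ratios. The ratio to Ccnd3 also holds Ccnd1, which did not overlap by itself. The ratio of Ccnd2 to Ccnd3 overlapped between the groups (log2 difference -0.46, exact permutation p = 0.2).

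Neither E cyclin was called. Ccne1 (ENSMUST00000108023; chromosome 7, 38097984 to 38107534, minus strand), whose product activates CDK2 at the end of G1, had 54.6, 48.3 and 44.9 FPKM in WT. It had 57.8, 52.9 and 63.5 FPKM in cKO. The groups overlapped through HC-1 and HM-13. The means of 49.3 ± 4.91 and 58.1 ± 5.29 FPKM (SD, n = 3 each) gave a log2 fold change of 0.23, with a 95% interval from 0.01 to 0.46 (limma unadjusted p = 0.0420, adjusted p = 0.130).

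Ccne2 (ENSMUST00000170901; chromosome 4, 11191351 to 11204779, plus strand) was listed at 0.257, 0.529 and 0.302 FPKM in WT and at 0.426, 0.224 and 0.122 in cKO. These values rest on 4 to 21 reads per library, and no difference was detectable at this depth. The ratio of Ccne1 to Ccne2 is limited by the same reads and ran from 91.2 to 212 in WT and from 136 to 521 in cKO (exact permutation p = 0.3).

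Among the kinases, Cdk4 fell, and Cdk6 and Cdk2 did not pass the test. Cdk4 (ENSMUST00000006911; chromosome 10, 127063534 to 127067920, plus strand), the catalytic partner of the D cyclins, had 1582, 1342 and 1499 FPKM in WT. It had 925, 1046 and 929 FPKM in cKO. The highest cKO library, HM-13, stayed below the lowest WT library. The mean went from 1474 ± 122 to 967 ± 69.0 FPKM (65.6% of WT; SD, n = 3 each). The log2 fold change was -0.61 (SE 0.09, limma adjusted p = 0.00616), on 12133 to 23949 reads per library.

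The sequence before Cdk4 is shown because, among the called members, it is the window of the RefSeq table that lies outside annotated exons. It runs from 250 to 2 bases before the RefSeq start site (GRCm38, chr10:127063285-127063533, plus strand). Capitals mark the E-box CACGTG, a palindrome that MYC family proteins and other basic helix-loop-helix factors can bind.
Cdk4: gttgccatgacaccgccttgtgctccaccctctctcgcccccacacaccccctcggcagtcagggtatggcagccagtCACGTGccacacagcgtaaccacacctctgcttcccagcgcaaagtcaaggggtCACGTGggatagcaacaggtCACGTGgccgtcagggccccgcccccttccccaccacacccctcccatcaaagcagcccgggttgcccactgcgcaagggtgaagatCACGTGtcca
The 4 matches begin at -172, -118, -98 and -11 from the start site. Of 32851 promoter windows of 250 bases, 6.02% hold CACGTG, and 7 hold 4 or more copies. The motif was added after the Cdk4 window had been read. The window also holds 1 GC box (GGGCGG on either strand, in 32.7% of windows). It holds none of 4 E2F words searched on both strands (TTTCCCGC, TTTCGCGC, TTTGCCGC and TTTGGCGC, in 1.86% of windows). No binding was measured, and a match describes the letters only. The window of Cdk6, which was not called, holds 1 CACGTG. Mycn, a MYC family gene of neural progenitors, had a log2 fold change of -0.18 (95% interval -0.51 to 0.16, limma adjusted p = 0.427). Mycl, of the same family, had a log2 fold change of 0.19 (95% interval -0.19 to 0.58, limma adjusted p = 0.447). Windows were found for 7 members and not for Ccnd1, Ccnd2 and Ccne2.

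Cdk6 (ENSMUST00000165117; chromosome 5, 3341485 to 3531008, plus strand), the other kinase of the D cyclins, had 14.1, 11.9 and 13.6 FPKM in WT. It had 12.9, 9.82 and 11.7 FPKM in cKO. The groups overlapped, and the log2 fold change was -0.19 (95% interval -0.47 to 0.08, limma adjusted p = 0.294). The ratio of Cdk4 to Cdk6 was 111.9, 113.1 and 110.3 in WT and 71.9, 106.5 and 79.3 in cKO. The cKO ratios were all lower, with HM-13 close to the WT libraries (log2 difference -0.40, exact permutation p = 0.1, the smallest possible).

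Cdk2 (ENSMUST00000026415; chromosome 10, 128697939 to 128705031, minus strand), the kinase of cyclin E, had 5.06, 4.49 and 3.92 FPKM in WT. It had 5.18, 4.81 and 6.13 FPKM in cKO. The groups overlapped (log2 fold change 0.22, 95% interval -0.09 to 0.52, limma adjusted p = 0.282). The ratio of Cdk4 to Cdk2 was 313, 299 and 383 in WT and 179, 218 and 152 in cKO, without overlap (log2 difference -0.87, exact permutation p = 0.1, the smallest possible). Like the ratio of Cdk4 to Cdk6, it holds Cdk4, which did not overlap by itself. Cdk4 made up 98.8% ± 0.0274 of the summed FPKM of the 3 kinases in WT and 98.3% ± 0.301 in cKO (SD, n = 3 each).

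**Figure D2:**
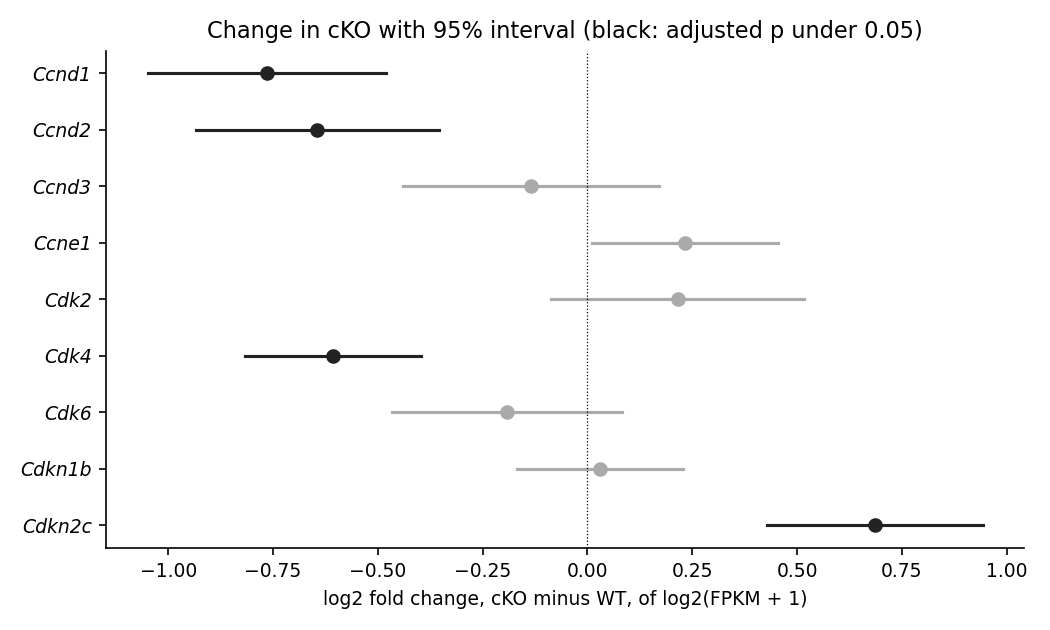
Log2 fold change of the 9 tested genes (x axis, cKO minus WT on log2(FPKM + 1)), with 95% intervals from limma over 3 WT and 3 cKO libraries. In black, Ccnd1, Ccnd2 and Cdk4 lie between -0.76 and -0.61 and Cdkn2c at 0.68; the 5 genes in grey did not pass.

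Of the inhibitors, Cdkn2c rose and Cdkn1b was not called. Cdkn2c (ENSMUST00000097921; chromosome 4, 109660876 to 109667189, minus strand), whose product p18 binds CDK4 and CDK6, had 14.2, 12.1 and 16.2 FPKM in WT. It had 25.0, 22.5 and 22.3 FPKM in cKO. Every cKO library was above every WT library. The means of 14.2 ± 2.02 and 23.3 ± 1.49 FPKM (SD, n = 3 each) gave a log2 fold change of 0.68 (SE 0.11, limma adjusted p = 0.00787), on 315 to 576 reads per library. With libraries scaled to their total reads, which count the ribosomal RNA of HM-13, the log2 fold change was 0.59 and did not pass (adjusted p = 0.165).

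Cdkn1b (ENSMUST00000003115; chromosome 6, 134920401 to 134925513, plus strand), whose product p27 restrains CDK2 and accumulates as cells leave the cycle, had 48.6, 40.5 and 49.5 FPKM in WT. It had 47.2, 47.3 and 46.4 FPKM in cKO, inside the WT range. The log2 fold change was 0.03 with a 95% interval from -0.17 to 0.23 (limma adjusted p = 0.840), and its sign changed with library totals as scaling.

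Ratios within a library set the inhibitors beside each other and beside the kinases. The ratio of Cdkn2c to Cdkn1b was 0.293, 0.300 and 0.326 in WT and 0.530, 0.476 and 0.481 in cKO. The ratio of Cdkn2c to Cdk6 was 1.01, 1.02 and 1.19 in WT and 1.94, 2.29 and 1.91 in cKO. The ratio of Cdkn2c to Cdk4 went from 0.00960 ± 0.00102 to 0.0242 ± 0.00276 (SD, n = 3 each), a log2 difference of 1.33. None of these 3 ratios overlapped between the groups, and each gave an exact permutation p = 0.1, the smallest the design allows. The 3 ratios share Cdkn2c, which did not overlap by itself. Cdk4 did not overlap either and went the other way. The separation of the ratio of Cdkn2c to Cdk4, and its p, were therefore fixed by those genes and add no further result. The ratios are of transcripts, and protein was not measured.

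**Figure D3:**
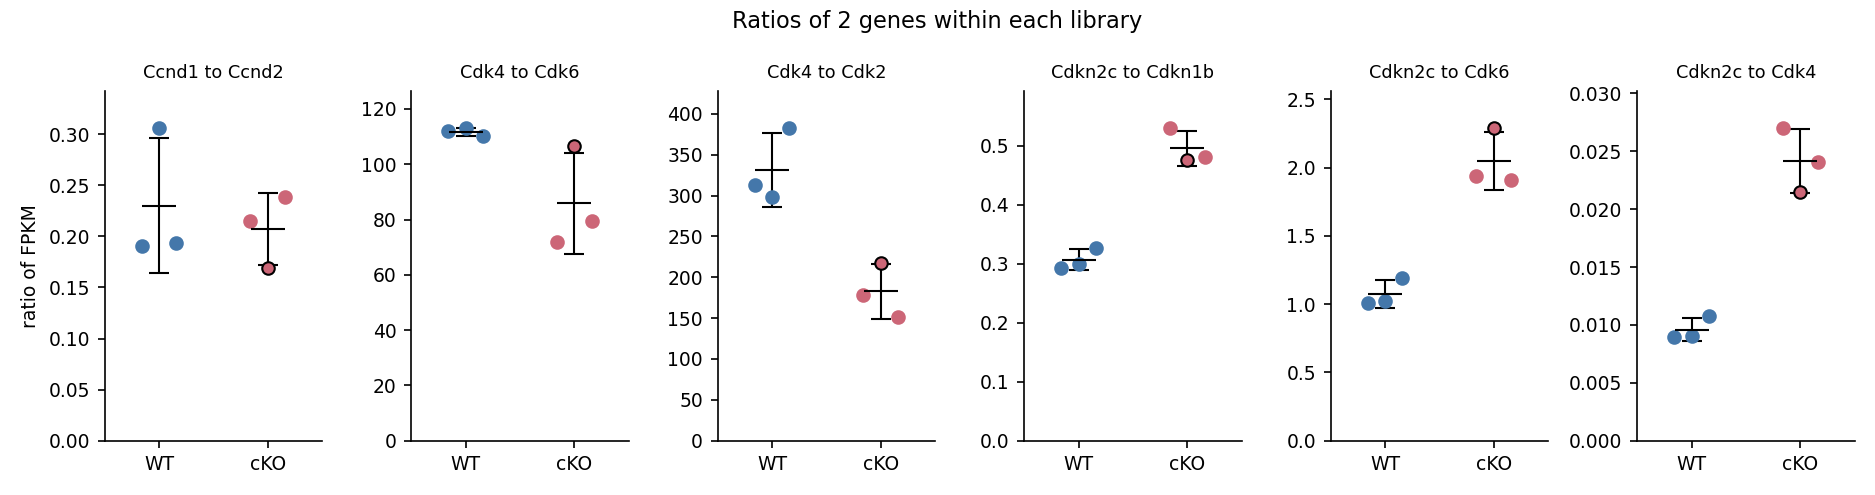
Ratio of the FPKM of 2 genes in the same library (y axes from 0, a scale per ratio) in 3 WT and 3 cKO libraries; points are libraries, the black rim marks HM-13, and bars are mean ± SD. The ratio of Ccnd1 to Ccnd2 overlaps between the groups and the other 5 ratios shown do not, with Cdkn2c to Cdk4 at 0.00960 in WT and 0.0242 in cKO. Of all 9 ratios tested, 6 did not overlap. Each of the 6 holds Ccnd1, Cdk4 or Cdkn2c, which did not overlap by themselves, as held for 39.1% of all genes tested. No share over other pairs of genes was taken. The ratios of Ccnd2 to Ccnd3 and Ccne1 to Ccne2 overlapped and are not shown.

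Of the members, 5 have a second row in the table. The second rows of Ccnd1 and Ccnd2 carry the transcript identifier of the first and hold 0.296% and 0.106% of the normalized counts of the symbol. That of Ccnd1 had 0.776 ± 0.0965 FPKM in WT and 0.454 ± 0.172 in cKO, on 6 to 20 reads per library. That of Ccnd2 had 3.08 ± 0.932 and 2.16 ± 0.570 FPKM, on 17 to 46 reads. Their cKO means were 58.5% and 70.1% of WT, on few reads. A shorter Cdkn2c transcript that starts farther into the gene (ENSMUST00000063531) had 1.70 ± 0.143 and 2.32 ± 0.345 FPKM, on 20 to 34 reads. The second Cdk2 row (ENSMUST00000026416) had 1.63 ± 0.113 and 1.43 ± 0.163 FPKM, lower in cKO where the first was higher. The second Cdkn1b row (ENSMUST00000067327), with 37.0% of the counts of the symbol, had 20.4 ± 0.719 and 22.1 ± 0.805 FPKM (SD, n = 3 each). Its values were 21.1, 19.7 and 20.4 in WT and 21.8, 23.0 and 21.4 in cKO, without overlap. No overlap held for 39.1% of all genes tested. The second rows of Ccnd1 and Cdkn2c also did not overlap, while those of Ccnd2 and Cdk2 did. The authors' deposited table gives an FDR for the second rows of Ccnd2 (0.429), Cdk2 (0.759) and Cdkn1b (0.516). With the rows of a symbol summed, limma called the same 4 members.

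**Figure D4:**
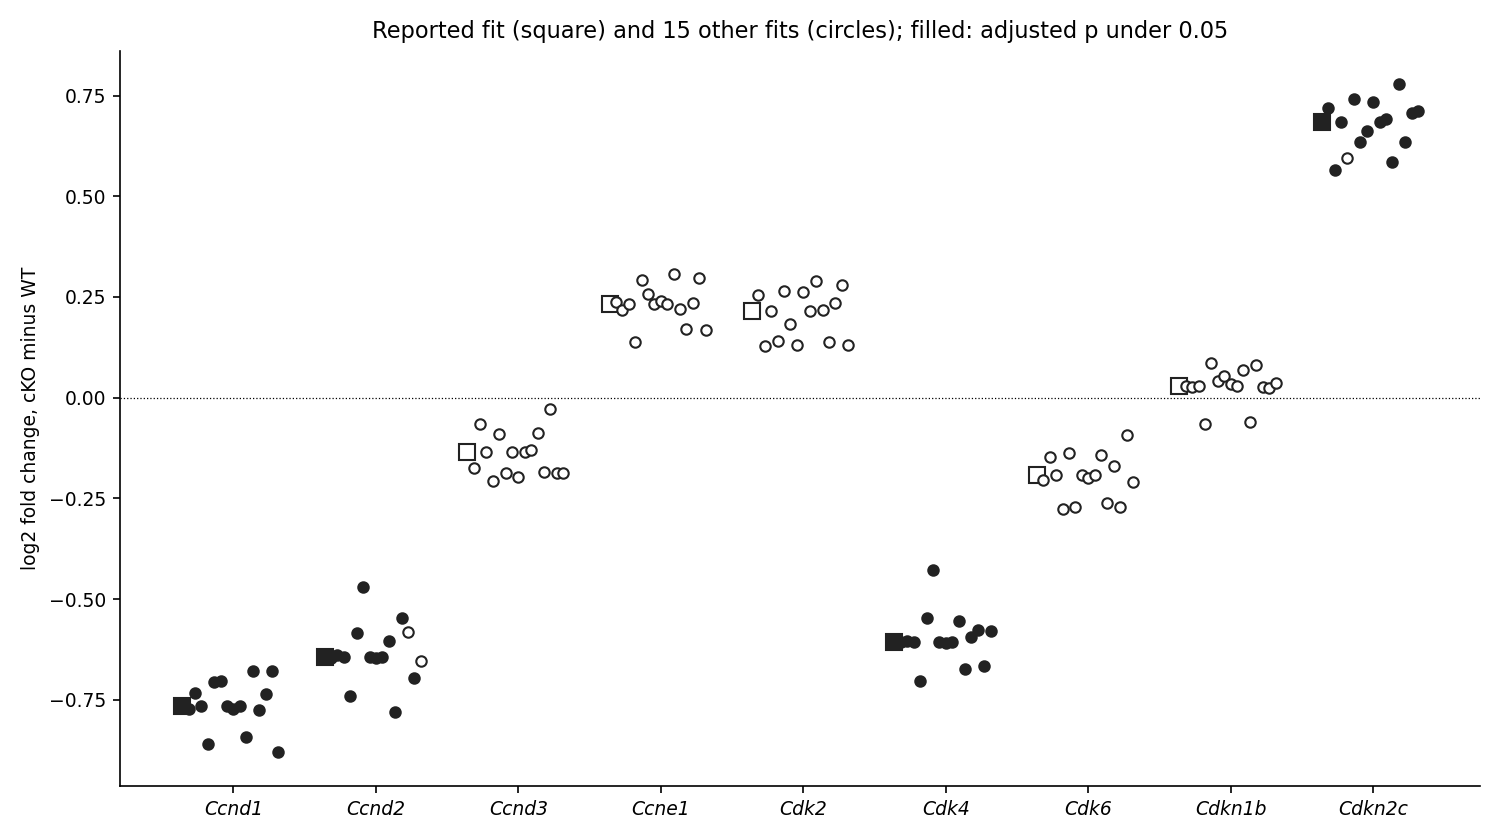
Log2 fold change (y axis, cKO minus WT) of the 9 tested genes in the reported fit (square) and in 15 other fits (circles) that changed a scaling, pseudocount, filter, row choice or model or left out 1 library; filled symbols have an adjusted p under 0.05. Ccnd1 and Cdk4 are filled in all of them, Ccnd2 is open in 2 and Cdkn2c in 1.

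Further genes of the same pathway, in 10 lists of 107 genes, were called at a rate near the background. Of 71 that could be tested, 3 rose and 11 fell (19.7%, against 18.0% of all genes), and the median log2 fold change was -0.10. The 3 that rose include E2f8, which passed the filter on low values only through its cKO libraries. With library totals as scaling, 12 of these 14 calls were lost and 1 gene was not tested; Pcna kept its call. Of the pocket proteins, which the D cyclin kinases phosphorylate, Rb1 rose from 33.0 ± 0.840 to 44.3 ± 2.90 FPKM (SD, n = 3 each; limma adjusted p = 0.00866). Rb1 was called whichever library was left out, and had an adjusted p of 0.570 with library totals. Rbl1, the gene of p107, fell from 20.3 ± 0.359 to 16.4 ± 1.02 FPKM (adjusted p = 0.0353), and lost its call whichever library was left out (adjusted p up to 0.113).

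Of 7 E2F and DP genes tested, E2f8, which encodes a repressor, rose from 0.659 ± 0.211 to 1.53 ± 0.308 FPKM (adjusted p = 0.0270). All its WT values are under 1 FPKM and all its cKO values above, so it passed the filter on low values only through the group where it is high, and its call is no support for a rise of these genes; it was also called with no such filter. E2f5 fell to 84.4% of WT (adjusted p = 0.0234). With a library left out, E2f8 was called in 1 of the 3 fits that tested it (lost without HC-1 or HC-10, adjusted p up to 0.0829), and without any one of the cKO libraries it was not tested. The E2f5 call was lost without HM-5, HM-16, HC-1 or HC-10 (up to 0.0895), with no trend, and, like that of Rbl1, with library totals that leave out Rn45s. E2f1, which encodes an activator, had 6.41 ± 0.668 FPKM in WT and 7.86 ± 0.290 in cKO, with an adjusted p of 0.124. Of the other CDK inhibitors listed, Cdkn3 was tested; its product is a phosphatase that acts on CDK2. It rose from 5.401 ± 0.263 to 9.43 ± 1.66 FPKM (adjusted p = 0.0128), and also with each library left out. Cdkn1a, Cdkn1c, Cdkn2a, Cdkn2b and Cdkn2d were not analysed here.

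Of 15 E2F target genes of S phase tested, 6 fell and 0 rose, where 8.39% of all genes tested fell, and the median log2 fold change was -0.21. Of the 6, 3 (Mcm3, Mcm2 and Gins1) lost their calls in 5 or 6 of the 6 fits with a library left out. Pcna, the clamp of DNA polymerase, had 68.3% of its WT level (adjusted p = 0.00616), and Rrm1, a subunit of ribonucleotide reductase, had 72.6% (adjusted p = 0.00409). Neither call was lost when a library was left out. The replicative helicase gene Mcm7 (76.6%, adjusted p = 0.0151) lost its call when HM-5, HM-16 or HC-10 was left out (up to 0.0720). Mcm3 (85.9%, adjusted p = 0.0407) lost its call whichever library was left out (up to 0.139). Mcm2 (adjusted p = 0.0496) likewise lost its call whichever library was left out (up to 0.16004). Gins1 (adjusted p = 0.0492) kept its call only without HM-13 (otherwise up to 0.171) and was not called by voom (0.0804). Both were also lost in 6 of the 9 fits that changed a setting.

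The 4 tested genes among the later cyclins and CDK1 had lower cKO means, and 0 passed limma after adjustment. All 4 had an unadjusted p under 0.05, and voom on the recovered reads called 1, Cdk1. Over all 9359 genes tested, voom called 1911. The share of all genes with an unadjusted limma p under 0.05 was not counted, so counts at that threshold have no background here. Ccna2, the S phase cyclin, had 233 ± 12.0 and 208 ± 6.18 FPKM, and the mitotic kinase gene Cdk1 had 133 ± 12.0 and 111 ± 5.23 FPKM (SD, n = 3 each; limma adjusted p = 0.0619). Of 5 tested regulators of CDK phosphorylation limma and voom called 0, while 4 reached an unadjusted p under 0.05. These 5 are Ccnh and Mnat1 of the CDK-activating kinase, the phosphatase gene Cdc25a, and Wee1 and Pkmyt1, whose products are inhibitory kinases; Pkmyt1 was the one with a larger p. Among 4 subunits of the MuvB and DREAM complexes 0 were called by either and 0 had such a p. Among 7 mitogenic regulators of D cyclins 0 were called by either and 1 had such a p.

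Of 10 genes for the turnover of cyclins and inhibitors, 2 subunits of the SCF ubiquitin ligase fell. Skp1a had 78.4% of WT (adjusted p = 0.0238; lost without HM-5, HM-16, HC-1 or HC-10, up to 0.102). The scaffold gene Cul1 had 78.6% (adjusted p = 0.0347; kept only without HC-8, otherwise up to 0.132). Of 16 atypical cyclins and related kinases, Ccnl1, a cyclin tied to splicing, fell to 74.1% of WT (adjusted p = 0.0186; lost without HC-1, HC-8, HM-5 or HM-16, up to 0.0750).

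**Figure D5:**
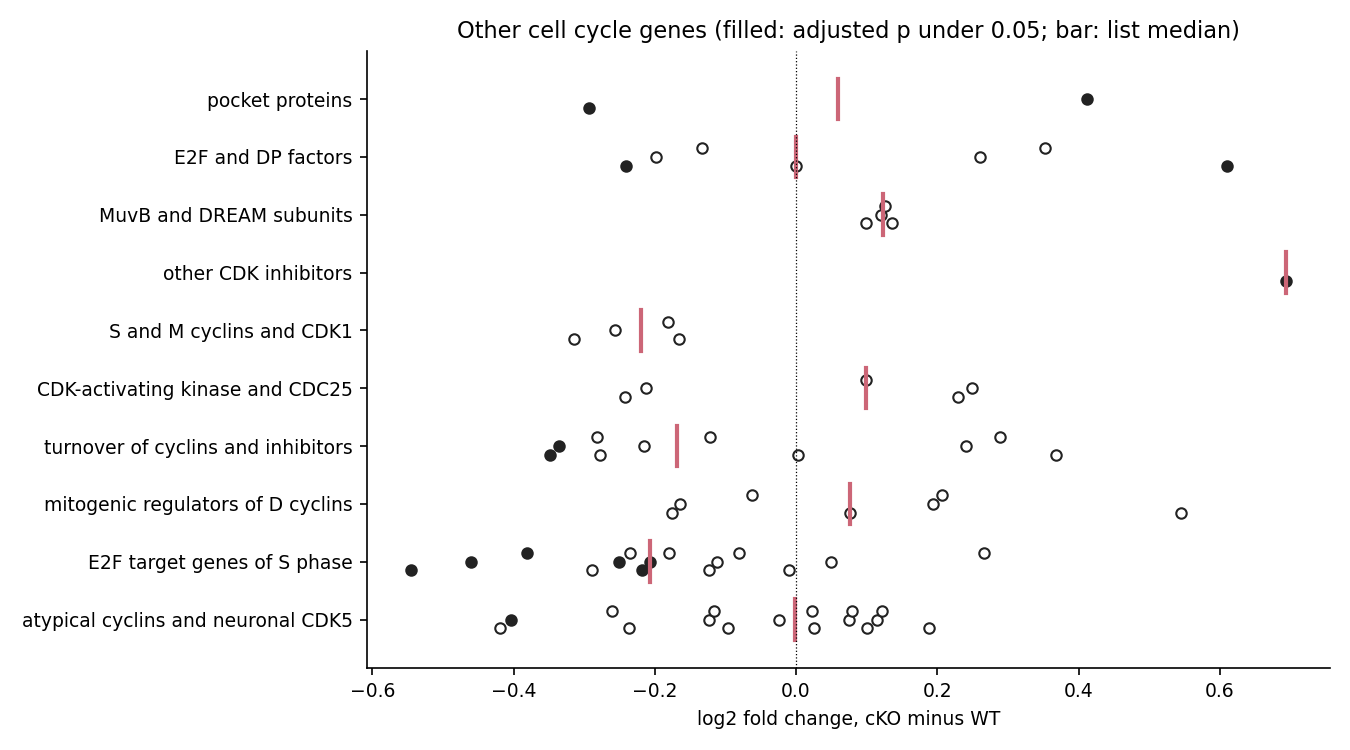
Log2 fold change (x axis, cKO minus WT) of 71 tested genes in 10 lists of the pathway; each point is a gene, filled where the adjusted p is under 0.05, and the red bar is the list median. The medians are lowest for the later cyclins with CDK1 (-0.22) and the S phase targets (-0.21).

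Markers of cell types were read beside these values. The summed FPKM of 14 radial glia genes was 3517 to 3787 in WT and 3223 to 3458 in cKO. Within that sum Fabp7 went from 825 ± 123 to 311 ± 103 FPKM (SD, n = 3 each). Of the 10 tested, 6 had a positive log2 fold change (4568 of 9359 over all genes tested), and the median was 0.24. A limma unadjusted p under 0.05 was reached by 7, and voom called 3 (1911 of 9359 over all genes tested). Counts at an unadjusted p under 0.05 have no background here. After adjustment in limma, Sox3 and Emx2 rose and Fabp7 fell. The Sox3 call was lost without HM-5 or HM-16, and that of Emx2 was kept only without HM-13. With library totals neither was called (adjusted p = 0.123 and 0.211), and Emx2 was not called with no trend. The sum of 11 intermediate progenitor genes was 551 to 636 and 487 to 584, and Btg2 fell (lost without HM-5, adjusted p = 0.0527). For 12 projection neuron genes it was 1251 to 1627 and 888 to 1323. All 11 tested had a negative log2 fold change (median -0.41), with 0 called by limma, 5 at an unadjusted p under 0.05 and 2 called by voom.

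Markers of other cells in the dissected tissue were summed likewise. The sum of 8 microglia genes was 57.0 to 72.6 FPKM in WT and 79.0 to 91.7 in cKO; Tyrobp and C1qb rose, calls lost without HM-16, with library totals (adjusted p = 0.190 and 0.498) and, for C1qb, also without HC-10 or HM-5. The erythroid sum was 14601 to 19650 in WT and 16643 to 24432 in cKO. Endothelial sums were 78.5 to 143 and 109 to 140.2, meningeal sums 356 to 623 and 388 to 572, and ventral telencephalic sums 30.8 to 99.0 and 35.8 to 65.8. In these last 4 lists limma and voom called 0 genes, and 1 meningeal gene had an unadjusted p under 0.05. Log2 fold changes were positive for all 8 microglia genes (median 0.40) and all 7 erythroid genes tested (median 0.29). They were positive for 4 of 5 endothelial (median 0.31), 8 of 10 meningeal (median 0.11) and 1 of 5 ventral telencephalic genes tested (median -0.71). Of the microglia genes, 5 had a limma unadjusted p under 0.05, and voom called 2. Over all 9359 genes tested, voom called 1911 and 4568 had a positive log2 fold change. No marker found in the table was at 0 in all 6 libraries. The part of these shifts in the values of the G1 genes was not tested.

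The profiles nearest to Ccnd1 and Cdkn2c among the other 9358 tested genes were taken by the root mean square difference of log2(FPKM + 1) over the 6 libraries, after centring on the WT mean. For Ccnd1 they were Prrt2 (difference 0.13; 49.97% of WT), Rgs8 (0.13; 59.2%) and the small nucleolar RNA Snora23 (0.13; 51.0%). For Cdkn2c they were Lrrc16b (0.04; 170.1% of WT), 6530402F18Rik (0.07; 173%) and Trpv6 (0.07; 271%, from a WT level of 0.629 FPKM, under the filter that its cKO level passed). These likenesses rest on 6 libraries in 2 groups and are a description.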

How the data were processed

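RNA was measured by sequencing in 3 WT and 3 cKO libraries of cortex. Per the submitters' processing notes, the tools were DESeq2 1.22.1 in R 3.4.1, featureCounts 1.6.1, STAR 2.5.4b and bcl2fastq 1.8.4, with build mm10; annotation, strandedness and the handling of shared reads are not stated there. The deposited table has 14379 rows with FPKM per library, per the file headers. The authors' deposited table also gives a mean normalized count (signal over all libraries), a log2 fold change, p-values and, for 9870 rows, an FDR.

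Each symbol was represented by its row of highest mean normalized count (1950 of 12041 symbols have several). FPKM times that mean count over the mean FPKM, divided by a step fitted per library, gave whole reads for 100% of values within 0.001 of a read; totals are given with the results. Genes reaching 1 FPKM in 3 or more libraries were tested with limma 3.58.1 in R 4.3.3 on log2(FPKM + 1), group as the only term, with an intensity trend, and Benjamini-Hochberg adjustment over all 9359. A pseudocount of 1 understates changes of low genes. The function was tested on simulated data. Ratios within a library were compared by a two-sided exact permutation test over libraries. Positions are of whole genes, not of the transcripts named, from GENCODE M21 (GRCm38), and promoters are from RefSeq (GRCm38.p6). Alternatives were other pseudocounts, scalings, filters, row choices, voom on the recovered reads, no trend and each library left out.

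Named are all members, the called genes of each pathway list (up to 4 per list, by smallest p), and the 3 profiles nearest to Ccnd1 and Cdkn2c; Gins1, Mcm2, genes named without a call, and the E-box motif were chosen after their values were seen. The members and lists were chosen with earlier results of these data known.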

Additional observations from a re-analysis of the deposited data

How the results depend on the processing

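Of the 15 alternative fits, 9 changed a setting and 6 left out a library. The number of members called was 4 in each of the 9 except library totals (3; Cdkn2c was lost), and 3 or 4 with a library left out. Ccnd1 and Cdk4 were called in all 15, with log2 fold changes of -0.88 to -0.68 and -0.67 to -0.55 when a library was left out. With quantile normalization the log2 fold changes were -0.70 for Ccnd1, -0.47 for Ccnd2 and -0.43 for Cdk4. With library totals they were -0.86, -0.74 and -0.70. Cdkn1b, which was not called, changed sign with library totals (-0.0655) and ran from -0.0614 (without HC-8) to 0.0812 with a library left out. The log2 difference in the ratio of Ccnd1 to Ccnd2 ran from -0.25 to 0.10 with a library left out, being above 0 without HC-8 or HM-13. The number of genes called over the whole table was 497 with library totals, which include the ribosomal reads of HM-13, and 511 (without HM-5) to 1773 (without HM-13) with a library left out, against 1685; leaving out HC-1, HC-10 or HM-16 gave 1103, 888 or 545. No paired analysis was possible because the columns carry no replicate numbers. Depth limits Ccne2 (4 to 21 reads per library) and the second rows of Ccnd1, Ccnd2 and Cdkn2c. Groups of 3 are too small for a test of single outlying libraries.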
